A study of Homo sapiens with 5 samples.

Results

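The origins described here are the 3-hour ini-seq 2 intervals that contained the 5′ end of a long non-coding RNA (lncRNA) gene record and lay more than 1 kb from the 5′ end of every protein-coding gene record of GENCODE 44 on hg38. They numbered 778 of 23905 origins and are called lncRNA-only origins below. For ini-seq 2, the bladder carcinoma line EJ30 was held in late G1 phase with mimosine, its isolated nuclei were given HeLa cytosolic extract and Br-dUTP, and DNA that replicated became heavy on one strand (HL) while the rest stayed light on both (LL). The reaction ran for 3 h in the main sample and for 15 min in another, and a second method, SNS-seq, mapped short nascent strands of the same line, recovered at sizes of 0.5 to 2 kb and of 2 to 4 kb. The genomic DNA input of SNS-seq was not analysed here. Each of the 4 lists stands alone, with no replicate beside it and no read counts, so the depth behind an origin is unknown and every value is a description. The 3-h value of an origin is its efficiency, HL/(HL + LL), which is at least 0.8 in every called origin.

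Long non-coding RNAs are transcripts without a long reading frame, many of them spliced and capped like messenger RNAs. Some start from CpG islands, stretches of GC-rich DNA in which CpG is not depleted and which also mark most promoters of widely expressed protein-coding genes. Others start near enhancers or inside genes, often on the strand opposite to the gene. Replication origins of human cells are known to gather at GC-rich promoters and at open chromatin, and most work on this has been done with protein-coding genes.

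The 778 origins held the 5′ ends of 837 lncRNA records, of which 367 carried a gene symbol and the rest an identifier alone. A single lncRNA 5′ end lay in 722 of them, 53 held 2 and 3 held 3. Of the 53 pairs, 24 were divergent, with transcripts pointing away from each other, 17 were convergent and 12 ran on the same strand. For comparison, 7596 origins contained a protein-coding 5′ end, 1267 of them together with a lncRNA 5′ end, and 12665 origins had neither kind of 5′ end within 1 kb. These are called coding-start origins and start-free origins. Both groups are defined by gene records alone, so start-free origins may lie at other transcript starts of a gene. A long interval has more room in which a 5′ end can fall, so the rule itself favours long intervals, and comparisons within classes of length are given below.

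The DNA around 6 lncRNA starts shows the range of sequence covered by the 778. Each run gives 300 bases of hg38 on the transcribed strand, 150 before the annotated 5′ end and 150 from it on, and capitals mark G4 motifs (4 runs of at least 3 G, or of C for the other strand, joined by loops of 1 to 7 nt). MIR17HG, the host transcript of an oncogenic miRNA cluster, and DGCR5, a lncRNA of the DiGeorge region, stand for CpG-rich starts of very high efficiency that were also called at 15 min. The window of MIR17HG, chr13:91347536-91347835 on the plus strand, held 42 CpG dinucleotides at a GC content of 70.7%, with no G4 motif.
MIR17HG: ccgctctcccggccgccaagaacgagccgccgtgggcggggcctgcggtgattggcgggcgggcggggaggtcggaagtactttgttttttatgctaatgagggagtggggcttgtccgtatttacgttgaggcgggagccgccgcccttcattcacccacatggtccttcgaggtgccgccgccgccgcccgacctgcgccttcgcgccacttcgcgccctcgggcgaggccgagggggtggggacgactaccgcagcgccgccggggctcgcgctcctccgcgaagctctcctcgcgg
DGCR5: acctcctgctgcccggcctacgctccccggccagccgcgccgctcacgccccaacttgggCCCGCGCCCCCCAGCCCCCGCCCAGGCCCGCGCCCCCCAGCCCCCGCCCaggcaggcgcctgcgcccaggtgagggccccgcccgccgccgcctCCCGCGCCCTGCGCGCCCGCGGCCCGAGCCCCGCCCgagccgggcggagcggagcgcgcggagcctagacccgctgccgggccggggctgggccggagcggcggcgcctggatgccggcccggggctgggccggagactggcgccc
The DGCR5 window, chr22:18970289-18970588 on the plus strand, reached a GC content of 85.7% with 45 CpG and 2 separate stretches of G4 motif, in which the runs are C on the printed strand. ITGB1-DT and LRRK2-DT are transcripts named for starting head to head with the genes of integrin beta 1 and of the kinase LRRK2, and are shown because they had nearly equal efficiency but only the first was called at 15 min. Their windows are chr10:32958287-32958586 on the plus strand and chr12:40224766-40225065 on the minus strand.
ITGB1-DT: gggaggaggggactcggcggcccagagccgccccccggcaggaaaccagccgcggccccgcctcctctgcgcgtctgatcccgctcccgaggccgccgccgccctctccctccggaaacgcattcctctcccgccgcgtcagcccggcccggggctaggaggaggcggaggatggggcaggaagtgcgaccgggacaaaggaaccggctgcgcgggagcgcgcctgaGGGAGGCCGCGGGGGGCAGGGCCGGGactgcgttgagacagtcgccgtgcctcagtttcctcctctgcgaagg
LRRK2-DT: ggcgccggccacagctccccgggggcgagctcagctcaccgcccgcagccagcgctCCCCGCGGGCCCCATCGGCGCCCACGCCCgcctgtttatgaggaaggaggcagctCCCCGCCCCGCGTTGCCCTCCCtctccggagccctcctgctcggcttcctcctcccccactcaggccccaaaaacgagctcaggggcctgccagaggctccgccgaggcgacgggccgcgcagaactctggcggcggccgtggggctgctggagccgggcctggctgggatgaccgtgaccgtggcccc
MALAT1, the abundant RNA of nuclear speckles, and the lncRNA ENSG00000289123 are shown for origins of lower GC content and lower efficiency. The MALAT1 window, chr11:65497490-65497789 on the plus strand, was rich in GC at 74.0%, although the whole origin had 58.6%. The window of ENSG00000289123, chr9:91193231-91193530 on the plus strand, had a GC content of 59.3% and 23 CpG, with no G4 motif.
MALAT1: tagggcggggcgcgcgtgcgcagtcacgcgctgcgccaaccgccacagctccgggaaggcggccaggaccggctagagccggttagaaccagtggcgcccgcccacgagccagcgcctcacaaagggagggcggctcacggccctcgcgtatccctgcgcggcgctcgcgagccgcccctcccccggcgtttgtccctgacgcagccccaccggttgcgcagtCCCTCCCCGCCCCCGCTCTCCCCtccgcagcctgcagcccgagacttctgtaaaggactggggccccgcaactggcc
ENSG00000289123: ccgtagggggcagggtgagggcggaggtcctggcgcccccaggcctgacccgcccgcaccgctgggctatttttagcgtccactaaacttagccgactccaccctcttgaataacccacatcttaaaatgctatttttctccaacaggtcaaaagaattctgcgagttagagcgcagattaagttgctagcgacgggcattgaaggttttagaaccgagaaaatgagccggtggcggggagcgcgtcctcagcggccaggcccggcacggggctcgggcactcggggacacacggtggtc

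The lncRNA-only origins were less efficient than coding-start origins and more efficient than start-free origins. The median efficiency of the lncRNA-only origins was 0.894 (95% interval 0.887 to 0.902, n = 778), with quartiles of 0.848 and 0.933. Coding-start origins had a median of 0.916 (0.915 to 0.918) and start-free origins one of 0.841 (0.840 to 0.842), against 0.873 over all 23905 origins. The intervals of these medians do not overlap, and they cover counting error over origins alone. Efficiencies spanned the whole scale, from 0.8 to 1, and lncRNA starts were found in origins of every strength.

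**Figure D1:**
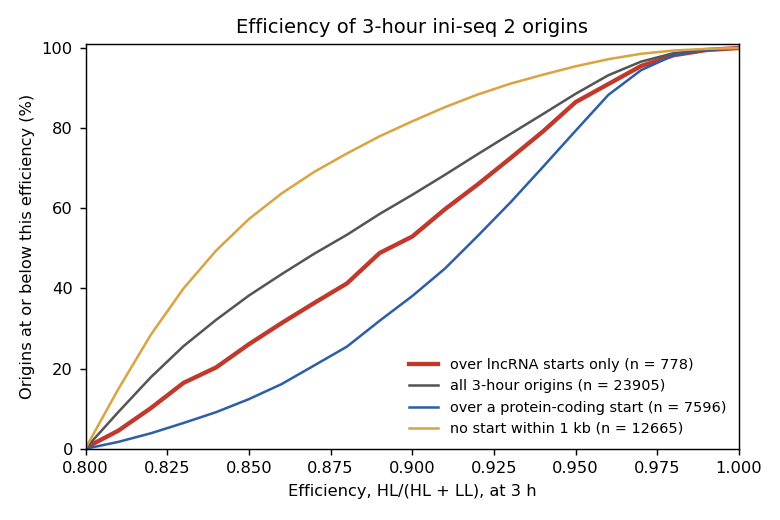
Cumulative share of origins (y axis, %) at or below each efficiency (x axis, HL/(HL + LL), a fraction without units) for the 778 lncRNA-only origins in red, all 23905 origins in grey, the 7596 coding-start origins in blue and the 12665 start-free origins in yellow. The red line runs between the blue and the yellow one over most of the scale, with medians of 0.894, 0.916 and 0.841.

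With limits at 0.842 and 0.907, which split the whole 3-hour list into 3 efficiency classes of about the same number, 332 of the 778 fell into the high class, which is 42.7% (39.2 to 46.2%) against a background of 33.3%. A further 276 were in the medium class and 170, or 21.9%, in the low class. Among coding-start origins the high class held 57.5% and the low class 9.65%, and among start-free origins 15.9% and 51.0%.

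The most efficient lncRNA-only origins were short and very rich in GC. An efficiency of 1, the value that HL/(HL + LL) takes without LL reads, was reached by 2 of them, over ENSG00000228010 (chr7:6663901-6664300, 400 bp, GC content 78.8%) and ENSG00000226877 (chr9:83817401-83817900, 500 bp, 80.0%). The next were ENSG00000285632 at 0.996, ENSG00000290924 at 0.991, the pseudogene transcript CROCCP3 at 0.988, ENSG00000272366 at 0.985, ENSG00000263212 at 0.984, LRRK2-DT at 0.983, the pair LINC03067 and ENSG00000291055 at 0.983, and ENSG00000288935 at 0.982. The length of these 10 origins ran from 400 to 800 bp and the GC content from 73.0 to 80.0%. All of the 10 overlapped SNS-seq peaks of both fractions, and 9 of them were called at 15 min, LRRK2-DT being the exception. Read depth is not in the list, so an efficiency of 1 in a 400 bp interval cannot be separated from low coverage of LL reads.

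More than 55% of the lncRNA-only origins were already present after 15 min. An origin of the 15-min list overlapped 434 of the 778, which is 55.8% (52.2 to 59.3%) against a background of 40.1% over all 3-hour origins. The share was 72.7% (71.7 to 73.7%) for coding-start origins and 17.5% (16.9 to 18.2%) for start-free origins. By efficiency class the lncRNA-only origins were called at 15 min in 87.95% of the high class (292 of 332), 42.75% of the medium class (118 of 276) and 14.1% of the low class (24 of 170). Coding-start origins of the same classes reached 92.7%, 54.5% and 16.1%, and start-free origins 66.1%, 17.0% and 2.74%. Within each class, then, the lncRNA-only origins were closer to the coding-start origins, and in the low class the interval of 9.26 to 20.3% includes the value of coding-start origins.

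Origins that had appeared by 15 min were smaller then. The overlapping 15-min origins had a median length of 600 bp, the 3-hour origin was longer in 382 of 434 cases (88.0%), and the median ratio of the lengths was 1.6, beside 1.5 for coding-start origins. In 377 cases (86.9%) the 15-min origin lay wholly inside the 3-hour origin. The lncRNA 5′ end nearest the centre was inside the 15-min origin in 314 of the 434 (72.4%, 67.9 to 76.5%). In 116 of the 434 no lncRNA 5′ end of the origin was covered at 15 min.

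The 15-min list gives each origin a Z-score, with a mean of 0 over that list. The lncRNA-only origins had a median of -0.26 (-0.41 to -0.12, n = 434), close to that of start-free origins at -0.26 and below that of coding-start origins at 0.16. The highest scores were at MAPK6-DT (2.19), NKILA (2.04), ENSG00000290924 (1.84), ATP13A3-DT (1.82) and ITGB1-DT (1.71). NKILA is a lncRNA known to bind the NF-kappaB complex, and the names of MAPK6-DT, ATP13A3-DT and ITGB1-DT mark transcripts divergent to a protein-coding gene. All of these 5 were in the high efficiency class at 3 h, with efficiencies from 0.945 at ATP13A3-DT to 0.991 at ENSG00000290924.

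Efficiency at 3 h and detection at 15 min did not always go together. In the high class 40 of 332 origins were not called at 15 min. They included LRRK2-DT (0.983), RRP7BP (0.974), ENSG00000289605 (0.965), ENSG00000273233 (0.965) and CRYZL2P-SEC16B (0.959), which were all 600 bp or shorter. Their median efficiency was 0.929 (0.922 to 0.939, n = 40). Conversely, 24 low-class origins were called at 15 min, led by TWF2-DT (efficiency 0.840, Z-score 1.22), PIWIL4-AS1 (0.841, 0.61), FMNL1-AS1 (0.842, 0.27), KCNQ1DN (0.804, 0.18) and ENSG00000274993 (0.807, 0.10). In these 5 the 3-hour interval was 1200 to 2200 bp long and the 15-min interval 300 to 500 bp, and each small 15-min interval overlapped a larger 3-hour interval of low efficiency.

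GC content varied together with both measures, and the lncRNA-only origins were called at 15 min more often than start-free origins in each class of GC content from 60% on. At a GC content of 60 to 65% the share called at 15 min was 23.6% (16.9 to 31.4%, n = 144) for lncRNA-only, 25.7% for coding-start and 3.34% for start-free origins. At 65 to 70% the shares were 51.9% (46.7 to 57.0%, n = 376), 66.4% and 18.02%. At 70 to 75% they were 81.6% (75.7 to 86.7%, n = 207), 93.4% and 56.9%. All 35 lncRNA-only origins with a GC content of 75% or more were called at 15 min (exact interval 90.0 to 100%), beside 95.5% and 85.2%. Between 65 and 75% the intervals of the lncRNA-only origins excluded the values of both other groups, while at 60 to 65% and above 75% their interval included the value of the coding-start origins. Below 60% there were 16 lncRNA-only origins, of which 1 was called at 15 min.

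**Figure D2:**
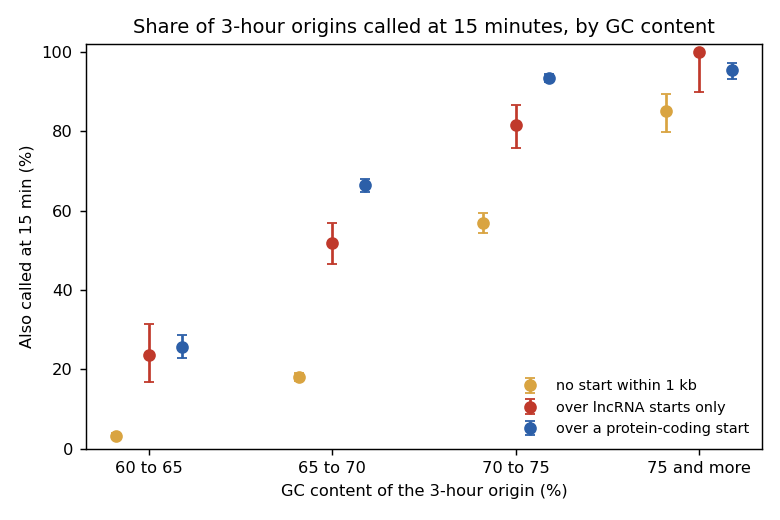
Share of 3-hour origins that were also called at 15 min (y axis, %) by GC content of the origin (x axis, %), for start-free origins in yellow, lncRNA-only origins in red and coding-start origins in blue, with exact 95% intervals as bars. The red points rise from 23.6% at 60 to 65% GC to 100% at 75% and more, and lie above the yellow points in all 4 classes.

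Median efficiency of the lncRNA-only origins was between the other 2 groups in the classes of GC content from 60 to 75%. It was 0.837, 0.884, 0.942 and 0.965 for lncRNA-only origins from the lowest to the highest of these 4 classes, 0.846, 0.897, 0.944 and 0.968 for coding-start origins and 0.820, 0.847, 0.924 and 0.967 for start-free origins. Above 70% the lncRNA-only and coding-start medians were nearly equal. In the same group order, the high class held 30.6%, 40% and 10.4% of origins at 65 to 70% GC. At 70 to 75% it held 86.5%, 91.2% and 67.8%, and at 75% or more 100%, 99.0% and 96.5%.

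At matched length the lncRNA-only origins stayed above the start-free origins, and were below the coding-start origins from 800 bp on. Among origins below 500 bp, 15.5% (8.51 to 25.01%, n = 84) of lncRNA-only, 17.3% of coding-start and 3.34% of start-free origins were called at 15 min. From 500 to 800 bp the shares were 46.0% (38.7 to 53.4%, n = 187), 50.8% and 14.2%, so below 800 bp the intervals of the lncRNA-only origins included the coding-start values. From 800 to 1300 bp the shares were 67.1% (60.7 to 73.1%, n = 234), 81.4% and 30.5%. From 2000 bp on, they were 62.6% (53.1 to 71.5%, n = 115), 88.5% and 38.1%. Among lncRNA-only origins the median efficiency was highest from 800 to 1300 bp, at 0.914, and lowest from 2000 bp on, at 0.853.

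SNS-seq, which isolates nascent strands made in cells rather than in a reaction with isolated nuclei, placed peaks over nearly all of these origins. A peak of the 0.5 to 2 kb fraction overlapped 713 of the 778 (91.6%, 89.5 to 93.5%), against a background of 78% over all origins, 93.4% of coding-start and 66.4% of start-free origins. The 2 to 4 kb fraction overlapped 757 (97.3%, 95.9 to 98.3%), against a background of 91.3%. Within 5 kb there was a peak of either fraction for 770 (99.0%, 98.0 to 99.6%), against 97.6% over all origins, a background so high that the count says little about lncRNA starts. Overlap also varied with length: below 500 bp the smaller fraction overlapped 78.6% of lncRNA-only (n = 84), 63.9% of coding-start and 44.9% of start-free origins. From 500 to 800 bp the shares were 80.2% (n = 187), 87.1% and 66.0%, so the coding-start origins were then the highest. From 2000 bp on they were 100%, 99.9% and 98.0%. Peaks of the smaller fraction covered a median of 92.2% of the interval (89.2 to 94.4%), beside 99.2% in coding-start and 55.3% in start-free origins.

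The 8 lncRNA-only origins without an SNS-seq peak within 5 kb were short and in the medium or low class. Their length was 300 to 700 bp and their efficiency 0.8004 to 0.8968, none was called at 15 min, and 7 of the 8 had no G4 motif. ENSG00000289123, printed above, was one of them, with an efficiency of 0.830 and a GC content of 55.5%. No origin of the high class lacked a peak within 5 kb (0 of 332, which allows a share of up to 0.904%, or 3 counts of the total).

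The lncRNA-only origins had the length of coding-start origins and an intermediate base composition. Their median length was 1000 bp, with quartiles of 600 and 1500 bp, as it was for coding-start origins, beside 600 bp for start-free origins. The median GC content was 67.8% (67.5 to 68.1%), with 69.2% in coding-start and 65.5% in start-free origins. The CpG island criterion used here, a GC content above 50% and an observed over expected CpG above 0.6, was met by 563 of 778 (72.4%, 69.1 to 75.5%), by 89.8% of coding-start and by 26.1% of start-free origins. A G4 motif was present in 622 (79.9%, 77.0 to 82.7%), beside 80.8% and 64.8%. A longer interval has more room for a motif, and in the central 300 bp alone the G4 shares were 45.0% (41.4 to 48.6%), 47.0% and 43.3%, with 44.8% over all origins, so that the interval of the lncRNA-only origins included all 3 other values. The CpG island share was below that of the coding-start origins and above that of the start-free origins.

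At the ends of these ranges lay origins of other kinds. The lowest GC content was 54.8%, over LINC00853 and CYP4A22-AS1 (chr1:47178901-47179300, efficiency 0.849), followed by ENSG00000289123 with 55.5%, ENSG00000251446 with 56.7%, SNHG32, a host gene of small nucleolar RNAs, with 57.0% and ENSG00000258789 with 58.3%. None of these 5 held a G4 motif and none was called at 15 min. The longest were the origin over ENSG00000224387 and ENSG00000229393 (chr1:2491901-2505300, 13400 bp), LMNTD2-AS1 (9100 bp), ENSG00000287356 (8200 bp), LINC02298 (7900 bp) and ENSG00000256982 (7900 bp). In these long intervals the observed over expected CpG was low, from 0.364 to 0.429, and the efficiency was between 0.821 and 0.859. Of the 5, 4 were called at 15 min, with 15-min intervals of 600 to 1800 bp.

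The place of the origin relative to the 5′ end of the gene record differed from that at protein-coding genes. Along the direction of transcription the centre of the origin lay downstream of the lncRNA 5′ end in 383 of 778 (49.2%, 45.7 to 52.8%), and downstream of the protein-coding 5′ end in 79.2% (78.3 to 80.1%) of coding-start origins. The median position of the centre was -5 bp (-29 to 19 bp) for lncRNA-only and 157 bp (152 to 163 bp) for coding-start origins. Both refer to the outermost 5′ end of a gene, and positions relative to other transcript starts of the gene were not computed. The distance without sign had medians of 193 and 189 bp, which is a description alone, since both groups hold intervals chosen to contain the 5′ end and have the same median length.

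A large subset of lncRNA-only origins also lay next to an internal start of a protein-coding gene. The rule uses the 5′ end of the gene record, which is its outermost end, and 294 of the 778 (37.8%, 34.4 to 41.3%) were within 1 kb of the 5′ end of another annotated transcript of a protein-coding gene. LRRK2-DT is an example, 27957 bp from the 5′ end of the LRRK2 record and within 1 kb of a protein-coding transcript start. In this subset the centre lay downstream of the lncRNA 5′ end in 37.4% (31.9 to 43.2%), at a median of -132 bp (-167 to -73 bp), so most centres were on the upstream side of the lncRNA start. In the other 484 it lay downstream in 56.4% (51.9 to 60.9%), at a median of 39.5 bp (8 to 74 bp), which is still below the share of coding-start origins.

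**Figure D3:**
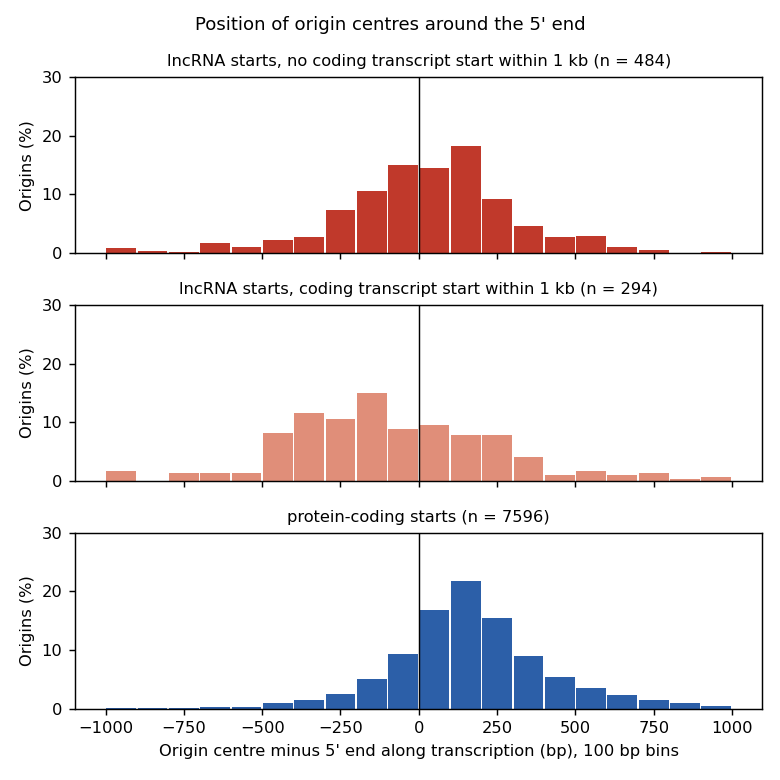
Position of the origin centre relative to the 5′ end along transcription (x axis, bp, in bins of 100 bp; positive is downstream), as a share of origins (y axis, %), for lncRNA-only origins without (n = 484) and with (n = 294) a protein-coding transcript start within 1 kb, and for coding-start origins (n = 7596). The share downstream is 56.4% in the upper, 37.4% in the middle and 79.2% in the lower panel, and centres beyond 1 kb are not drawn.

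The 294 origins beside a protein-coding transcript start were the stronger ones. Their median efficiency was 0.909 (0.899 to 0.919), 68.0% (62.4 to 73.3%) were called at 15 min and their median length was 1200 bp. The other 484 had a median efficiency of 0.884 (0.875 to 0.889), 48.3% (43.8 to 52.9%) were called at 15 min and the median length was 800 bp. Their median GC contents were 68.4 and 67.4%. The 484 thus remained above all origins and start-free origins in both measures, with a smaller gap. Start-free origins were not filtered by transcript starts in the same way.

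Base composition around the starts showed a peak of GC content and a change of GC skew, the excess of G over C on the transcribed strand, (G - C)/(G + C). Mean GC content over the lncRNA-only starts was highest in the 100 bp just before the 5′ end, at 70.8%, and 49.0 and 49.6% near the ends of the 3 kb flanks. These starts were chosen to lie in called origins, whose median GC content was 67.8%, so a GC peak near them follows from that choice. Skew rose by a mean of 0.050 (SD 0.199 over starts, n = 778) from the 500 bp before to the 500 bp after the lncRNA 5′ end, and the change was positive in 470 (60.4%). At protein-coding starts inside origins the change was 0.067 (SD 0.185, n = 8524), positive in 65.1%, and at lncRNA starts with no origin within 500 bp it was 0.025 (SD 0.169, n = 14636), positive in 56.2%. The spread between starts was larger than each of these means. From 1 to 3 kb downstream the mean skew was 0.0011 after lncRNA-only starts and 0.041 after protein-coding starts, so at lncRNA-only starts it was near 0 past the first 1 kb.

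**Figure D4:**
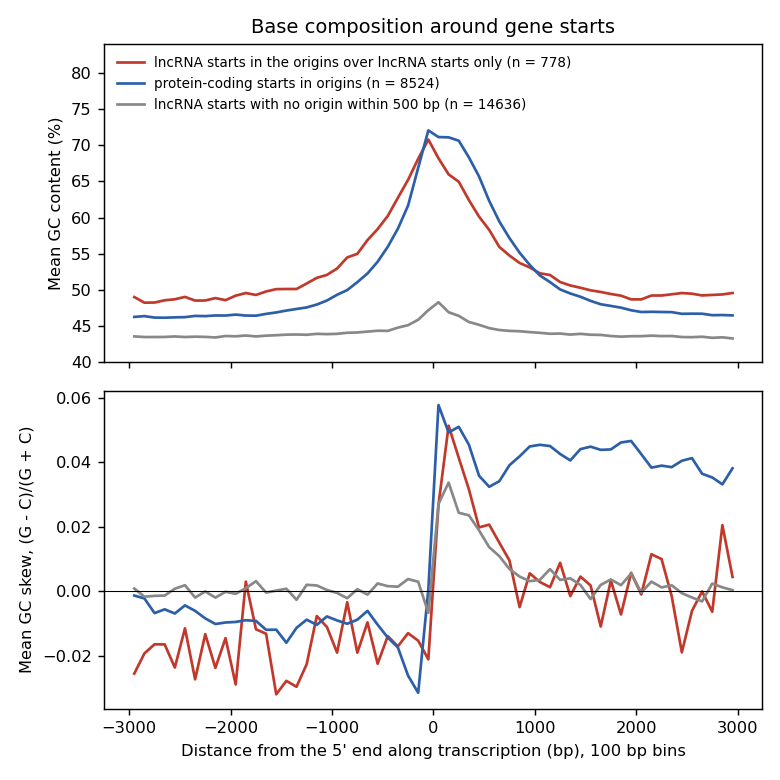
Mean GC content (upper panel, %) and mean GC skew on the transcribed strand (lower panel, (G - C)/(G + C), without units) in bins of 100 bp by distance from the 5′ end (x axis, bp along transcription), for lncRNA-only starts in red, protein-coding starts in origins in blue and lncRNA starts without an origin within 500 bp in grey. GC content peaks at 70.8% for the red, 72.0% for the blue and 48.3% for the grey line, and the red skew returns to about 0 past 1 kb while the blue one stays near 0.041.

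Short sequence elements known from promoters were searched on both strands of the same window of 150 bp on each side of the 5′ end. GGGCGG, the GC box bound by Sp1, was found at 70.8% (67.5 to 74.0%) of lncRNA-only starts, at 83.5% of protein-coding starts in origins and at 16.0% of all lncRNA starts more than 1 kb from a protein-coding start. The order was the same for CCGGAAG, a core recognised by ETS factors, with 11.2% (9.05 to 13.6%), 16.7% and 3.35%. TGACGTCA, the cyclic AMP response element, was found at 1.93% (1.08 to 3.16%), 2.91% and 0.611%, and its interval includes the value of protein-coding starts in origins. CCAAT was also less frequent at lncRNA-only starts than at protein-coding starts in origins, but was most frequent at all such lncRNA starts. Its shares were 21.7% (18.9 to 24.8%), 29.1% and 35.1%. TATAAA was present at 2.57% (1.58 to 3.94%) of lncRNA-only starts, 2.83% of protein-coding starts in origins and 16.4% of all such lncRNA starts. Over all 20033 protein-coding starts the shares were 54.3% for GGGCGG, 12.1% for CCGGAAG, 2.18% for TGACGTCA, 33.8% for CCAAT and 9.18% for TATAAA. GC-rich letters are more frequent in GC-rich windows, GGGCGG can overlap a G4 run, and a match is not a bound site.

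In the genome, 383 of the lncRNA-only origins lay outside protein-coding genes and 358 inside one on the strand opposite to the lncRNA. A further 32 lncRNAs lay inside a protein-coding gene on its own strand, and 5 were inside genes of both strands. Origins of the opposite-strand lncRNAs had a median efficiency of 0.903 (0.895 to 0.911) and 62.8% (57.6 to 67.9%) were called at 15 min. Outside genes the values were 0.887 (0.881 to 0.898) and 50.7% (45.5 to 55.8%), and in the 32 same-strand cases 0.868 (0.838 to 0.919) and 37.5% (21.1 to 56.3%). These values too are not split by the presence of a protein-coding transcript start within 1 kb. Relative to the nearest 5′ end of a protein-coding gene record, 328 lncRNAs faced the gene on the other strand, 281 ran on the same strand and 169 ran away from it. Internal transcript starts were not considered, so LRRK2-DT, ITGB1-DT and ATP13A3-DT, divergent by name, count among the 328.

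Early detection did not follow the distance to the 5′ ends of protein-coding gene records. This distance ignores internal transcript starts, and origins within 1 kb of one were called at 15 min more often, as given above. The median distance of a lncRNA-only origin to the nearest protein-coding 5′ end was 18042.5 bp, with quartiles of 6408.5 and 49270 bp. The share called at 15 min was 59.6% (45.8 to 72.4%, n = 57) at 1 to 2 kb, 44.7% (34.9 to 54.8%, n = 103) at 2 to 5 kb, 58.1% (n = 248) at 5 to 20 kb, 57.2% (n = 271) at 20 to 100 kb and 55.6% (45.2 to 65.5%, n = 99) beyond 100 kb. The 99 most distant origins had the highest median efficiency, 0.914 (0.906 to 0.928), and 59.6% (49.3 to 69.3%) of them were in the high class, while their median length was 800 bp and their GC content 68.8%. The coding-start median of 0.916 lay within the efficiency interval of these 99 origins.

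The members nearest to the limit, just more than 1 kb from a protein-coding 5′ end, were the origins over ENSG00000267898 (1009 bp from the 5′ end of FTL, efficiency 0.801), ENSG00000272884 (1028 bp from FGF11, 0.833) and NKILA (1036 bp from PMEPA1, 0.9496). Just less than 1 kb away, and so left out, were those over SLC16A1-AS1 (993 bp from SLC16A1, 0.897), GPAT4-AS1 (914 bp from GPAT4, 0.970) and ENSG00000287222 (909 bp from PUF60, 0.906).

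Neighbouring origins were fewer than around start-free origins. The next 3-hour origin was a median of 12100 bp away (10600 to 14700 bp), beside 26700 bp for coding-start and 5600 bp for start-free origins. Ini-domains, taken as runs of at least 6 origins with gaps of up to 100 kb, held 59.8% of the lncRNA-only, 54.1% of the coding-start and 77.9% of the start-free origins. The lncRNA-only origins lay on 23 chromosomes and made up 2.01 to 4.43% of the origins of each. Their median efficiency was above that of all origins of the same chromosome on 22 of the 23 and their 15-min share on 19 of the 23.

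Names of lncRNA genes reflect where they lie. Of the 19 origins led by a divergent transcript (-DT), 16 were called at 15 min (84.2%, 60.4 to 96.6%), and their median efficiency was 0.937 (0.895 to 0.955). Of the 151 led by an antisense transcript (-AS), 69.5% (61.5 to 76.8%) were called, with a median efficiency of 0.908. The 99 with a LINC name, given to intergenic lncRNAs, had 46.5% (36.4 to 56.8%) and 0.887, and the 438 with an identifier alone 49.8% (45.0 to 54.6%) and 0.886. The intervals of the -AS class do not overlap those of the LINC and identifier classes in the 15-min share. The -AS and -DT origins also had higher GC contents, 68.5 and 70% against 67.5% in both other classes. These values are not split by the presence of a protein-coding transcript start within 1 kb. LRRK2-DT, MAPK6-DT, ATP13A3-DT, ITGB1-DT and TWF2-DT, the -DT origins named in this text, all had one.

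Among a list of 64 records of well-known lncRNAs, 48 lay more than 1 kb from a protein-coding 5′ end and 17 of these 48 had a 3-hour origin over their start. The lncRNA-only origins covered 14 of them, one origin each, with a median efficiency of 0.912 (0.8678 to 0.9496). The 17 of 48 are 35.4% (22.2 to 50.5%), against 6.13% of all lncRNA starts at such a distance and 9.80% of those with a symbol. All listed records have a symbol, the list was chosen with earlier results known, and GC content was not matched. Of the 14, 8 were in the high class (57.1%, 28.9 to 82.3%) and 9 were called at 15 min (64.3%, 35.1 to 87.2%), and both intervals include the values of all lncRNA-only origins, 42.7 and 55.8%. Listed lncRNAs whose start held no origin numbered 36 in all, and included the imprinted H19 (GC content of 50% within 250 bp of the start) and MEG3 (60.8%), and the cancer-associated UCA1 (47.2%) and CYTOR (41.4%).

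The 2 abundant nuclear RNAs of chromosome 11 that lie next to each other had origins of nearly equal, moderate efficiency. NEAT1, which scaffolds paraspeckles, lay in an origin of 1500 bp (chr11:65422001-65423500) with an efficiency of 0.868, a GC content of 65.5% and 3 G4 motifs. At 15 min a 300 bp origin with a Z-score of -0.61 was called inside it, from -573 to -274 bp relative to the NEAT1 start, so that the start itself was not covered. MALAT1 lay in an origin of 1000 bp (chr11:65497201-65498200) with an efficiency of 0.868 and no 15-min origin. SNS-seq peaks of the larger fraction covered both intervals completely, and those of the smaller fraction 72.9 and 89.5%.

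Stronger origins were found over DLEU2, DGCR5 and KCNQ1OT1. DLEU2, a lncRNA of a region deleted in leukaemia, shared an origin of 2400 bp (chr13:50123901-50126300) with ENSG00000274270, with an efficiency of 0.976, and the 15-min origin of 2300 bp was nearly as long. The DGCR5 origin (chr22:18970201-18971100) had an efficiency of 0.975, a Z-score of 1.65 and a 15-min interval of the same length, 900 bp, shifted by 100 bp. KCNQ1OT1, the antisense RNA of an imprinted cluster, had an origin of 1300 bp (chr11:2699601-2700900) with an efficiency of 0.921 and a GC content of 71.9%, which was not called at 15 min. Its nearest protein-coding 5′ end, that of CDKN1C, was 184875 bp away.

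**Figure D5:**
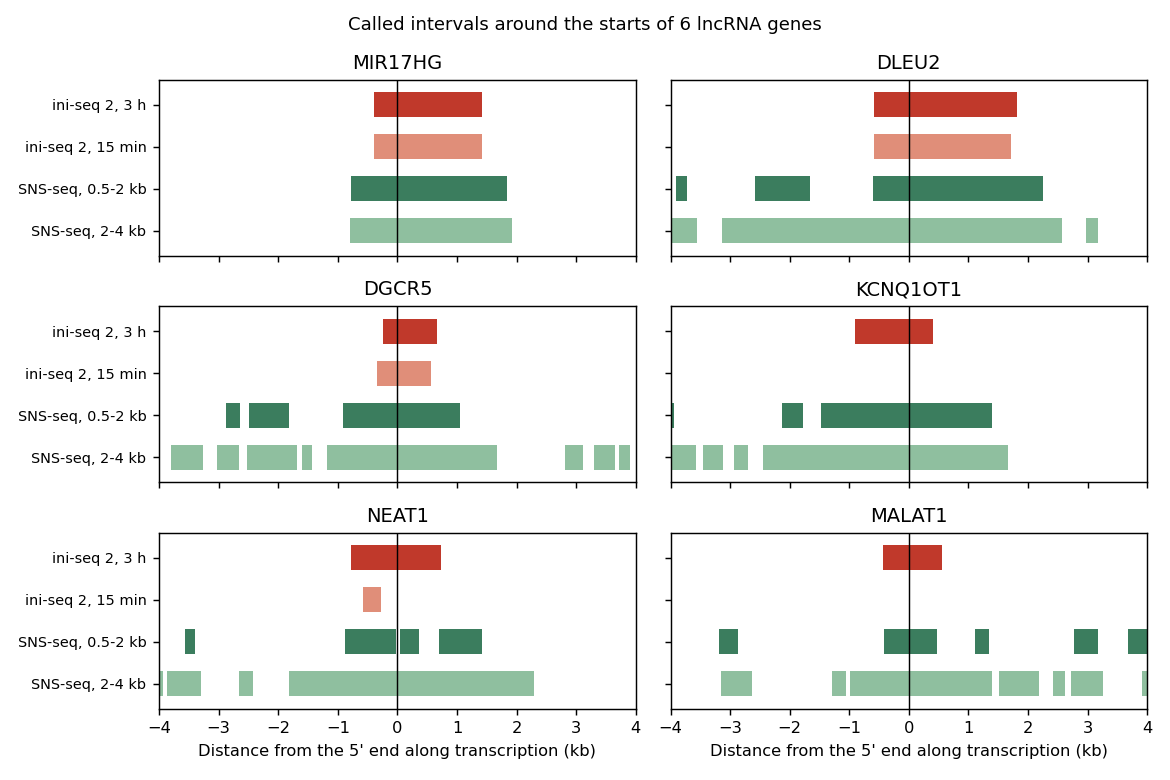
Called intervals around the 5′ ends of 6 lncRNA genes (x axis, distance from the 5′ end along transcription, kb; the vertical line is the 5′ end), with one row for each of the 4 lists: ini-seq 2 at 3 h and 15 min in red shades and SNS-seq of 0.5 to 2 kb and 2 to 4 kb in green shades. MIR17HG, DLEU2 and DGCR5 have 15-min intervals of 1800, 2300 and 900 bp across the start, NEAT1 has one of 300 bp upstream of it, and KCNQ1OT1 and MALAT1 have none.

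The remaining listed lncRNAs spanned a similar range. TERC, the RNA template of telomerase, lay in an origin of 700 bp (chr3:169764501-169765200, efficiency 0.913), and DANCR with LINC01618 in one of 800 bp (chr4:52712201-52713000, 0.948), both called at 15 min. The 15-min origin did not cover the TERC start itself. HOTAIR, transcribed from the HOXC cluster 1575 bp from the origin's nearest protein-coding 5′ end, had 0.911 and a low Z-score of -1.30. NORAD, a cytoplasmic RNA that binds Pumilio proteins, had an efficiency of 0.883 and was not called at 15 min. HAR1A and HAR1B, RNAs of a human accelerated region, shared an origin of 4200 bp (0.854). LINC00511 had 0.921, PCAT6 0.884 and LINC00857 0.807, of which LINC00511 alone was called at 15 min.

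Host genes of small RNAs made up a group of 111 records, 96 of them more than 1 kb from a protein-coding 5′ end, and 20 of the 96 had a 3-hour origin over their start. The 20 of 96 are 20.8% (13.2 to 30.3%), against the same 6.13% of all such lncRNA starts and 9.80% of those with a symbol, without matching of GC content. Of the 19 lncRNA-only origins over such hosts, 13 were called at 15 min (68.4%, 43.4 to 87.4%) and 10 were in the high class (52.6%, 28.9 to 75.6%), both intervals again including the values of all lncRNA-only origins, with a median efficiency of 0.920 (0.854 to 0.948). MIR17HG had the highest efficiency, 0.982, and its origin (chr13:91347301-91349100, 1800 bp, 5 G4 motifs) had identical ends at 3 h and at 15 min, where its Z-score was 1.64. SNHG7 followed with 0.973, MIR1915HG with 0.969 and MIR378D2HG with 0.961. Hosts of let-7 miRNAs were also present: MIRLET7A1HG with 0.945, MIRLET7IHG with 0.948 and MIRLET7BHG with 0.907, all called at 15 min. MIRLET7IHG and MIRLET7BHG lay in origins with 3 lncRNA starts each, as did LINC00667, LINC00526 and ENSG00000265091, whose shared origin had an efficiency of 0.802 and was not called at 15 min. The lowest host efficiencies were 0.805 at MIR130AHG and 0.812 at MIR497HG. SNHG15 and SNHG32, hosts of small nucleolar RNAs, had 0.854 and 0.858 and were not called at 15 min.

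Of 78 lncRNA records named after developmental transcription factors, 56 lay more than 1 kb from a protein-coding 5′ end, 12 of these had an origin over their start and 8 lncRNA-only origins held one. TBX2-AS1 (efficiency 0.943), TFAP2A-AS2 (0.908) and GATA2-AS1 (0.908) were in the high class. NKX2-1-AS1 (0.897), MEF2C-AS1 (0.896), MEF2C-AS2 (0.855) and HOXC-AS1 (0.825) were below it. The median length was 1950 bp, and GATA2-AS1 lay in an interval of 4200 bp. The 12 of 56 are 21.4% (11.6 to 34.4%), against 6.13% of all lncRNA starts at such a distance and 9.80% of those with a symbol, without matching of GC content. Of the 8 origins, 5 were called at 15 min (62.5%, 24.5 to 91.5%, which includes both the 55.8% of lncRNA-only origins and the 40.1% of all origins), among them HOXC-AS1 of the low class, while NKX2-1-AS1 and both MEF2C antisense RNAs were not.

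Seen from the genes, an origin over a lncRNA start was uncommon. Of 16194 lncRNA records more than 1 kb from every protein-coding 5′ end, 992 (6.13%, 5.76 to 6.51%) had a 3-hour origin over the start, 440 (2.72%) a 15-min origin, 1771 (10.9%) an SNS-seq peak of 0.5 to 2 kb and 3042 (18.8%) one of 2 to 4 kb. The 992 exceed the 837 records of the lncRNA-only origins because some of those origins reach to within 1 kb of a protein-coding 5′ end. Of 16555 protein-coding records more than 1 kb from another, 6541 (39.5%) had a 3-hour origin. Among lncRNA records with a symbol the share was 9.80% (8.96 to 10.7%), and among those with an identifier alone 4.67% (4.29 to 5.07%).

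Most lncRNA starts are poor in GC, and the difference between the 2 kinds of gene was smaller at equal GC content. Of the 16194 lncRNA starts, 9747 had a GC content below 50% within 250 bp on each side, and 1 of these had a 3-hour origin. None of 3709 protein-coding starts below 50% had one, which allows a share of up to 0.0809% by the same limit of 3 counts. At 60 to 65% a 3-hour origin covered 21.7% (19.3 to 24.1%) of lncRNA and 42.6% (40.6 to 44.5%) of protein-coding starts, at 65 to 70% the shares were 51.3% (47.5 to 55.1%) and 77.5%, and at 70% or more 63.8% (59.4 to 68.0%) and 85.7%. In each of these classes the interval of the lncRNA starts lay below the value of the protein-coding starts.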

How the data were processed

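Ini-seq 2 and SNS-seq origins of EJ30 cells were taken from 4 deposited lists, 1 per condition. For ini-seq 2 the authors aligned reads to hg38 with Bowtie2, removed duplicates, scaled HL and LL counts per 100 bp window to the library totals, took windows whose log2(HL/LL) reached 2, merged those up to 500 bp apart and called merged intervals with an efficiency of 0.8 or more. The 3-hour list pools 2 biological replicates. Its value, headed Z-score in the file, is a fraction deposited by the authors, HL/(HL + LL), and the deposited value of the 15-min list is a Z-score, a score without units. SNS-seq peaks were called by the authors with MACS2 against genomic DNA, and those lists hold positions alone. Depth per interval is unknown, and intervals around shares and medians cover counting error only.

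All positions lay within hg38 chromosomes, and 5′ ends were those of GENCODE 44 gene records, which may not be the annotation of the study. The longest GENCODE extent of a gene sets its 5′ end. Overlap means at least 1 bp. Medians have order-statistic and shares exact Clopper-Pearson 95% intervals, and for a count of 0 the limit printed is 3 counts of the total, computed in Python 3.11.15 with numpy 2.4.6, scipy 1.17.1 and pandas 2.3.3, and drawn with matplotlib 3.10.9. With 1 list per condition no test was made. GC content, CpG, skew and motifs were read from hg38, and the searches were tested on simulated sequence. Where an origin held several lncRNA 5′ ends, the one nearest its centre gave the strand.

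The members, the lists of well-known lncRNAs and of transcription factor names, and the comparisons were chosen with earlier results of these data known. Named origins were those with the 10 highest efficiencies, the 5 longest, the 5 lowest in GC content, the 5 highest Z-scores, 5 each of the low class called and the high class not called at 15 min, those with 3 lncRNA starts, those of the lists, and 3 on each side of the 1 kb limit. Lists at the 3-hour and 15-min reactions were called separately, so a missing call is not a measured absence. Alternatives were other limits, transcript 5′ ends, records with a symbol, other overlaps and other windows.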

Additional observations from a re-analysis of the deposited data

How the results depend on the processing

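Of 81 alternative settings over 12 results, 40 left the value within its 95% interval, or a count within 1.5 times, and 41 moved it. No paired analysis was possible because 1 list was used for each condition, with no separate values of replicates. Limits of 500 bp, 2 kb or 5 kb around protein-coding 5′ ends left the member results within these bounds, but lowered the share of lncRNA 5′ ends with an origin from 6.13% to 5.32% (2 kb) and 4.75% (5 kb), while an origin within 500 bp was found for 9.62%. With 5′ ends of every transcript the median efficiency was 0.883, the high class 35.1%, the 15-min share 45.0%, the length 800 bp, the GC content 67.4%, the G4 share 73.9% and the CpG island share 69.0%. With lncRNA genes that have a symbol there were 349 origins, with an efficiency of 0.905, 48.4% in the high class, 63.6% called at 15 min, a GC content of 68.3% and 78.5% CpG islands. Other alternatives concerned how an overlap or a motif is defined. The 15-min share was 39.1% where at least 50% of the interval had to be covered, 40.9% where the 15-min origin had to contain a lncRNA 5′ end and 63.8% within 5 kb. These 15-min alternatives were not computed over all origins. The background of 40.1% uses an overlap of 1 bp and cannot be set beside them. The SNS-seq share was 97.6% by overlap, 96.9% for the 0.5 to 2 kb fraction alone and 96.8% for both fractions. Over all 3-hour origins the same measures gave 91.6%, 93.9% and 93.0%. The GC content of the central 100 bp was 70%, the G4 share 92.2% with loops of up to 12 nt and 45.0% in the central 300 bp, and the CpG island share 65.3% under the stricter criterion. Of these, only the G4 share in the central 300 bp was also computed over all origins. Both following alternatives were chosen after seeing the data. The 484 origins without a protein-coding transcript start within 1 kb had an efficiency of 0.884, 36.6% in the high class, 48.4% at 15 min, a length of 800 bp, a GC content of 67.4%, 76.2% with a G4 motif, 68.8% CpG islands and 56.4% of centres downstream. The 421 origins of 500 to 1200 bp had 0.906, 49.4%, a GC content of 68.4%, a G4 share of 75.8% and 81% CpG islands. The cause of these shifts was not tested.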

Other observations

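The 15-min list held 360 origins over a lncRNA start alone, and 15 of these had no 3-hour origin at all (4.17%, 2.35 to 6.78%), a share that includes the 4.89% of the whole list, 498 of 10181, in its interval. Their lengths ran from 300 to 1100 bp and their Z-scores from -1.89 at FGD5P1 to 1.47 at ENSG00000253347 (chr17:47423401-47424100), followed by CASTOR3P with 1.08. These names were chosen after their values were seen. Whether the absence at 3 h reflects the limit of 0.8 on the efficiency could not be seen from the lists, since intervals below it are not in them.

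Origins that contained both a protein-coding and a lncRNA 5′ end, 1267 in number, had a median efficiency of 0.921 (0.918 to 0.925) and 79.7% (77.4 to 81.9%) were called at 15 min, which is above the values of the lncRNA-only origins and of all coding-start origins.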
